A study of Mus musculus with 23 samples.

Results

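The 7 genes described here encode enzymes of serine, glycine, S-adenosylmethionine (SAM) and D-serine metabolism: Phgdh, Psat1, Psph, Shmt1, Shmt2, Mat2a and Srr. They were taken by symbol, with earlier results of these data known, and are 7 of the 748 genes with values in the table. RNA from about 5 mg of hippocampus was measured in 23 mice on an nCounter metabolic pathways panel, which counts colour-coded probes hybridised to each transcript without amplification. In the ADP_UA group (5 mice), animals carried a heterozygous Polbtm1Rsky allele together with Tg(APPSwe,tauP301L)1Lfa and Psen1tm1Mpm, and received urolithin A. The AD_UA group (5 mice) carried Tg(APPSwe,tauP301L)1Lfa and Psen1tm1Mpm and received urolithin A. The ADP_Veh (4 mice) and AD_Veh (5 mice) groups had these same genotypes and received vehicle, and the WT_Veh group (4 mice) was wild type on vehicle. Urolithin A, which gut bacteria form from ellagitannins in plant food, was given by oral gavage for 5 months at 200 mg per kg and day. All mice were 18 months old on a background labelled C57BL6/J. Females numbered 3 of 5 in ADP_UA, 2 of 5 in AD_UA, 1 of 4 in ADP_Veh, 3 of 5 in AD_Veh and 2 of 4 in WT_Veh. The main comparisons between groups did not adjust for sex. The labels name neither the promoter of the transgenes nor the cells that express them. A wild-type group on urolithin A was not analysed here, so each treatment comparison lies within a transgenic genotype. Polb, the gene of DNA polymerase beta that is altered in the ADP groups, was not among the genes measured, and its level could not be used to check the labels. The labels do not state that the samples of a group were unrelated animals, and each sample was taken as 1 mouse.

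Serine is made from the glycolytic intermediate 3-phosphoglycerate by Phgdh, which oxidises it, Psat1, which adds the amino group, and Psph, which removes the phosphate. Shmt1 in the cytosol and Shmt2 in mitochondria convert serine to glycine and load a one-carbon unit onto tetrahydrofolate. Mat2a makes SAM, the methyl donor of the cell, from methionine. Srr turns L-serine into D-serine, a co-agonist of the NMDA receptor. In the brain, Phgdh is known mainly from astrocytes and other glia, and Srr mainly from neurons.

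Values are log2 of the normalized counts that the authors deposited, and a difference is a log2 difference given with its standard error (SE). The panel has 1 value per gene and no scale per length, so levels are compared between mice and not between genes. Total counts inferred from the spacing of low values ran from 186275 to 693550 per mouse. Replicates 3 and 5 of ADP_UA had the lowest totals, 245943 and 186275, and the other 21 mice had at least 426748. All 7 genes were among the 619 tested, which needed a normalized value of 20 in at least 4 samples. Shmt1 reached 20 in 19 of 23 mice and the other 6 genes in all 23. Over the 23 mice the inferred counts had medians of 388 for Phgdh, 1438 for Psat1, 350 for Psph, 27 for Shmt1, 92 for Shmt2, 2120 for Mat2a and 1270 for Srr. Neuronal transcripts of the labelled tissue were present, since Grin1, the obligate subunit of the NMDA receptor, lay between 9.63 and 10.35 in the treated groups and between 9.88 and 10.27 in the vehicle groups.

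Promoter stretches of Psat1 and Phgdh are shown for a motif that both hold, because these 2 genes also varied together among the mice. The sequences are from RefSeq on GRCm38.p6, minus strand, written 5′ to 3′, and capitals mark CCAAT, a promoter motif known to be bound by the NF-Y complex. The Psat1 stretch is chr19:15925060-15925110 and ends at the base before the start of transcription. The Phgdh stretch is chr3:98339973-98340177.
Psat1: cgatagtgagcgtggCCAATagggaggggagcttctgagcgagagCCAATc
Phgdh: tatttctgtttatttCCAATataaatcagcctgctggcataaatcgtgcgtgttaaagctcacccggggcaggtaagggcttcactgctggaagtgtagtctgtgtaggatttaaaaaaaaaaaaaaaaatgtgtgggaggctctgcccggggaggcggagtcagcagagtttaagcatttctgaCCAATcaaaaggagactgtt
The matches lay 36 and 6 bases before the start site of Psat1 and 193 and 23 bases before that of Phgdh. Psph held 2 matches on the reverse strand, 78 and 48 bases before its start. Shmt1 and Mat2a held 1 each, at 47 and 89 bases, both on the reverse strand, and Shmt2, Srr and the alternative Psat1 promoter held 0. Within 250 bases upstream, on both strands, 33.8% of 32851 RefSeq mouse promoters held at least 1 CCAAT and 10.1% held at least 2. This motif was picked after the sequences were seen. TGATGNAA, the core of sites bound by the amino acid stress factor Atf4, was searched on both strands and was absent from this window in the 8 promoters of the 7 genes, against 3.45% of all promoters that held it. A match or its absence describes these letters only.

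The first comparison asks how vehicle-treated transgenic hippocampus, with or without the Polb allele, differs from wild type. Phgdh, the first and committed enzyme of serine synthesis, read 8.66, 8.55, 8.47, 8.82 and 8.99 in the 5 ADP_UA mice and 8.67, 8.41, 8.63, 8.20 and 8.57 in the 5 AD_UA mice. It read 8.23, 8.80, 8.85 and 8.57 in ADP_Veh mice, 8.32, 8.33, 8.43, 8.22 and 9.32 in AD_Veh mice, and 8.47, 8.37, 8.61 and 8.36 in WT_Veh mice. All 5 groups overlapped, and AD_Veh replicate 5 was far above every other mouse. Group means were 8.70 ± 0.21 in ADP_UA, 8.5 ± 0.19 in AD_UA, 8.61 ± 0.28 in ADP_Veh, 8.52 ± 0.45 in AD_Veh and 8.45 ± 0.12 in WT_Veh (SD, n = 4 or 5). Ordered by level, from ADP_UA through ADP_Veh, AD_Veh and AD_UA down to WT_Veh, neighbours lay closer than the SD of either group. Against WT_Veh, Phgdh was higher by 0.16 (SE 0.19, limma adjusted p = 0.691) in ADP_Veh and by 0.07 (SE 0.18, adjusted p = 0.944) in AD_Veh. The ADP_Veh difference was 0.081 without ADP_Veh replicate 3 and 0.29 without ADP_Veh replicate 1. Without AD_Veh replicate 5 the AD_Veh difference was -0.13.

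Psat1, the transaminase of the second step, read 10.40, 10.32, 10.42, 10.50 and 10.83 in ADP_UA mice and 10.47, 10.17, 10.50, 10.17 and 10.62 in AD_UA mice. It read 10.49, 10.51, 10.80 and 10.68 in ADP_Veh mice, 10.07, 10.34, 10.32, 10.16 and 11.49 in AD_Veh mice, and 10.01, 9.92, 10.44 and 9.99 in WT_Veh mice. Every ADP_Veh mouse lay above every WT_Veh mouse, the only 1 of the 7 genes whose groups separated in any of the 8 pairwise comparisons. In ADP_Veh against WT_Veh, 7.59% of all genes tested did not overlap between the groups, which is 47 of 619. The Psat1 difference was 0.53 (SE 0.22, 95% interval 0.08 to 0.98), 1.44-fold, with a limma adjusted p of 0.352. It passed the threshold of 0.05 (adjusted p = 0.0480) when AD_Veh replicate 5, a mouse of neither group that enters the shared spread, was left out, and with array weights (0.68, adjusted p = 0.00306), a setting that called 132 genes. In AD_Veh the difference from WT_Veh was 0.39 (SE 0.20, adjusted p = 0.553), and 0.13 without replicate 5. Means were 10.49 ± 0.20 in ADP_UA, 10.39 ± 0.21 in AD_UA, 10.62 ± 0.15 in ADP_Veh, 10.48 ± 0.58 in AD_Veh and 10.09 ± 0.24 in WT_Veh, which puts ADP_Veh highest, then ADP_UA, AD_Veh, AD_UA and WT_Veh. The gap between AD_UA and WT_Veh was larger than the SD of both, and the other neighbours lay within theirs.

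Psph, the phosphatase that releases free serine, read 8.62, 8.44, 8.49, 8.12 and 8.43 in ADP_UA mice and 8.49, 8.45, 8.45, 8.01 and 8.37 in AD_UA mice. It read 8.43, 8.63, 8.61 and 8.33 in ADP_Veh mice, 8.11, 8.36, 8.44, 8.13 and 8.53 in AD_Veh mice, and 8.25, 8.08, 8.42 and 8.01 in WT_Veh mice. The groups overlapped, with 1 WT_Veh mouse inside the ADP_Veh range. The ADP_Veh difference from WT_Veh was 0.31 (SE 0.13, limma adjusted p = 0.352) and that of AD_Veh was 0.12 (SE 0.12, adjusted p = 0.784), which was 0.064 without WT_Veh replicate 4. Psph averaged 8.42 ± 0.18 in ADP_UA, 8.35 ± 0.20 in AD_UA, 8.5 ± 0.14 in ADP_Veh, 8.31 ± 0.19 in AD_Veh and 8.19 ± 0.18 in WT_Veh. From ADP_Veh at the top through ADP_UA, AD_UA and AD_Veh to WT_Veh, each step was smaller than the SD of both neighbours.

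**Figure D1:**
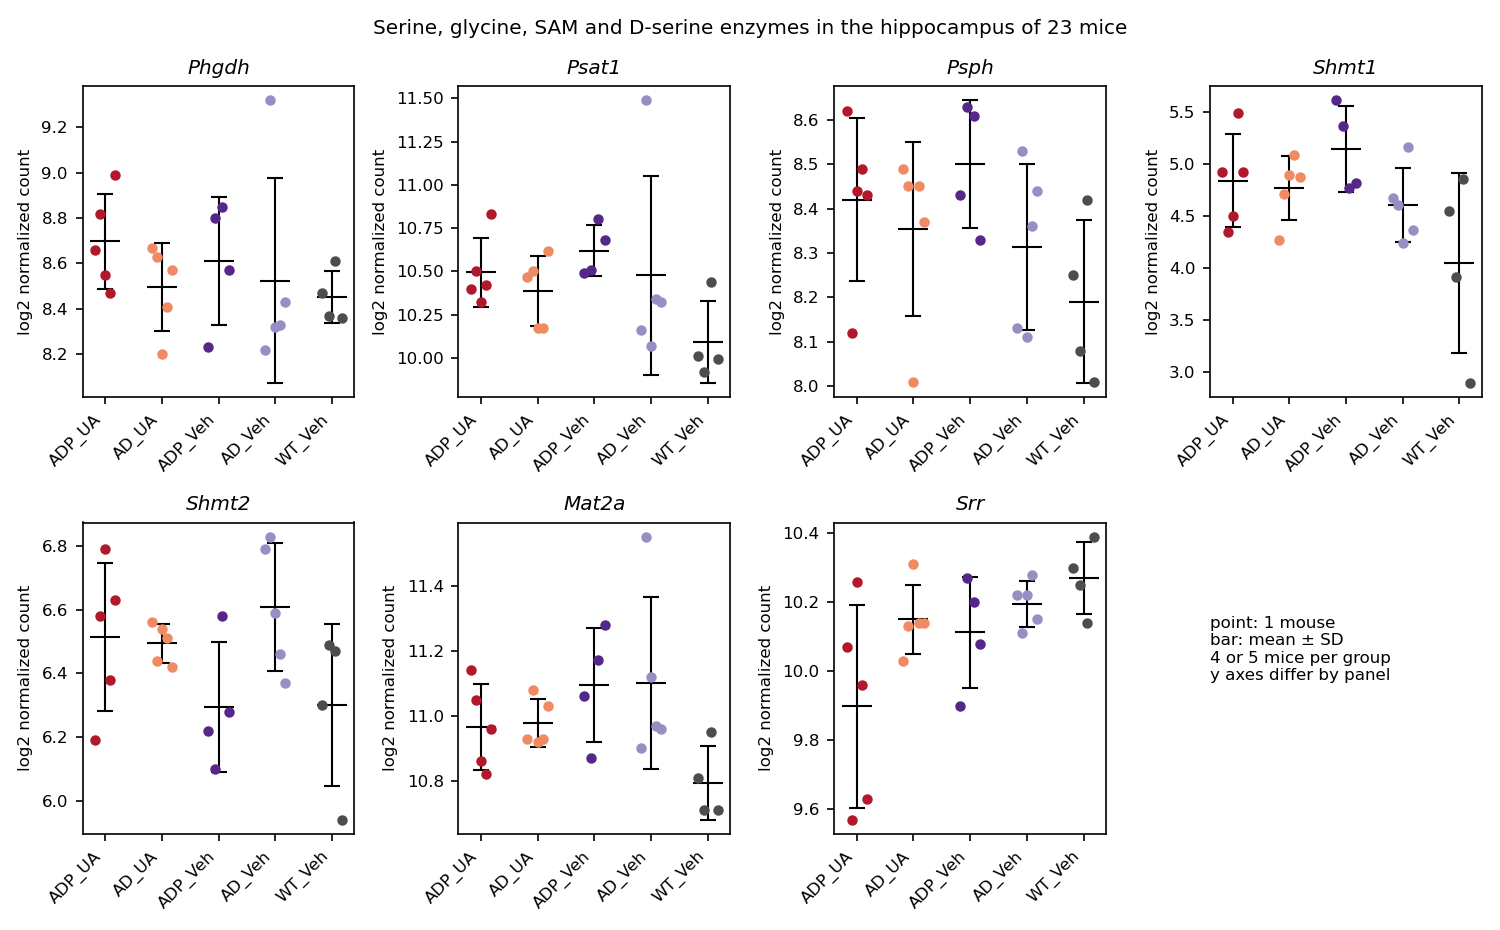
Level of each of the 7 genes in every mouse, as log2 of the normalized count, with the y axis scaled for each panel. Points are mice in the order ADP_UA, AD_UA, ADP_Veh, AD_Veh, WT_Veh, and bars are means ± SD (n = 4 or 5). In Phgdh and Psat1 the AD_Veh point at 9.32 and 11.49 stands above all others, and in Shmt1 the WT_Veh point at 2.89 stands below all others.

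Shmt1, the cytosolic serine hydroxymethyltransferase, read 4.92, 4.50, 5.49, 4.34 and 4.92 in ADP_UA mice and 4.27, 5.08, 4.71, 4.89 and 4.87 in AD_UA mice. It read 5.61, 5.36, 4.77 and 4.81 in ADP_Veh mice, 4.24, 5.16, 4.36, 4.67 and 4.60 in AD_Veh mice, and 4.54, 3.91, 4.85 and 2.89 in WT_Veh mice. WT_Veh replicate 4 was the lowest of all mice, and WT_Veh replicate 3 lay inside the ADP_Veh range. This gene had the fewest counts of the 7. The WT_Veh mouse at 2.89 rested on 7 inferred counts, with an exact Poisson 95% interval of 2.81 to 14.42 that covers counting error only, and ADP_UA replicate 5 on 11 (5.49 to 19.68). Shmt1 was higher by 1.09 (SE 0.35, 95% interval 0.37 to 1.81) in ADP_Veh than in WT_Veh, 2.13-fold and the largest difference among the 7 genes, with a limma adjusted p of 0.230. Without WT_Veh replicate 4 it was 0.70. In AD_Veh it was higher than in WT_Veh by 0.56 (SE 0.33, adjusted p = 0.608), and by 0.17 without that mouse. Shmt1 averaged 4.83 ± 0.45 in ADP_UA, 4.76 ± 0.31 in AD_UA, 5.14 ± 0.41 in ADP_Veh, 4.61 ± 0.36 in AD_Veh and 4.05 ± 0.87 in WT_Veh. In the order ADP_Veh, ADP_UA, AD_UA, AD_Veh, WT_Veh, the last step exceeded the SD of AD_Veh but not that of WT_Veh, and the earlier ones were within both.

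Shmt2, the mitochondrial enzyme of the same reaction, read 6.19, 6.79, 6.38, 6.58 and 6.63 in ADP_UA mice and 6.56, 6.51, 6.44, 6.54 and 6.42 in AD_UA mice. It read 6.22, 6.10, 6.58 and 6.28 in ADP_Veh mice, 6.59, 6.46, 6.37, 6.79 and 6.83 in AD_Veh mice, and 6.30, 6.49, 6.47 and 5.94 in WT_Veh mice. No pair of groups separated, and the AD_UA mice spanned the narrowest range. ADP_Veh and WT_Veh were within 0.01 of each other (difference -0.01, SE 0.15, limma adjusted p = 0.998), while AD_Veh was 0.31 above WT_Veh (SE 0.14, adjusted p = 0.512), and 0.19 above it without WT_Veh replicate 4. Shmt2 averaged 6.51 ± 0.23 in ADP_UA, 6.49 ± 0.061 in AD_UA, 6.29 ± 0.20 in ADP_Veh, 6.61 ± 0.20 in AD_Veh and 6.3 ± 0.25 in WT_Veh. AD_Veh was highest, followed by ADP_UA and AD_UA, with ADP_Veh and WT_Veh lowest. Only the step between AD_UA and WT_Veh exceeded the SD of one neighbour, AD_UA.

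Mat2a, the SAM synthetase of tissues outside the adult liver, read 11.14, 10.86, 10.82, 11.05 and 10.96 in ADP_UA mice and 10.93, 10.93, 11.08, 10.92 and 11.03 in AD_UA mice. It read 11.06, 10.87, 11.17 and 11.28 in ADP_Veh mice, 11.12, 10.97, 10.96, 10.90 and 11.55 in AD_Veh mice, and 10.81, 10.71, 10.95 and 10.71 in WT_Veh mice. In each vehicle comparison only WT_Veh replicate 3, at 10.95, reached into the transgenic range. Mat2a was 0.30 above WT_Veh both in ADP_Veh (SE 0.11, limma adjusted p = 0.348) and in AD_Veh (SE 0.11, adjusted p = 0.362), and the AD_Veh value was 0.19 without replicate 5. These 2 comparisons share the WT_Veh mice. Mat2a averaged 10.97 ± 0.13 in ADP_UA, 10.98 ± 0.073 in AD_UA, 11.1 ± 0.17 in ADP_Veh, 11.1 ± 0.26 in AD_Veh and 10.8 ± 0.11 in WT_Veh. By level, AD_Veh and ADP_Veh came before AD_UA, ADP_UA and WT_Veh. The step down to WT_Veh exceeded the SD of both neighbours, that between ADP_Veh and AD_UA exceeded the SD of AD_UA, and the others were within both.

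Srr, serine racemase, read 10.07, 10.26, 9.96, 9.57 and 9.63 in ADP_UA mice and 10.03, 10.14, 10.13, 10.31 and 10.14 in AD_UA mice. It read 9.90, 10.27, 10.20 and 10.08 in ADP_Veh mice, 10.22, 10.28, 10.15, 10.22 and 10.11 in AD_Veh mice, and 10.30, 10.25, 10.14 and 10.39 in WT_Veh mice. The lowest 2 readings of the series belonged to ADP_UA replicates 4 and 5, while replicate 2 of that group lay within the WT_Veh range. Srr was the only one of the 7 genes whose mean was highest in WT_Veh. Srr averaged 9.9 ± 0.29 in ADP_UA, 10.15 ± 0.10 in AD_UA, 10.11 ± 0.16 in ADP_Veh, 10.20 ± 0.067 in AD_Veh and 10.27 ± 0.10 in WT_Veh. From ADP_UA upward through ADP_Veh, AD_UA and AD_Veh to WT_Veh, the first step exceeded the SD of ADP_Veh and the last that of AD_Veh, and the other steps were within both. On vehicle, Srr differed from WT_Veh by -0.16 in ADP_Veh (SE 0.12, limma adjusted p = 0.522) and by -0.07 in AD_Veh (SE 0.11, adjusted p = 0.867). The values were -0.087 in ADP_Veh without its replicate 1 and -0.034 in AD_Veh without WT_Veh replicate 4.

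None of the 7 genes passed the adjusted threshold of 0.05 in either vehicle comparison with WT_Veh. In ADP_Veh against WT_Veh, limma called 0 of 619 genes (0%), and 4 of the 7 genes (Shmt1, Mat2a, Psat1 and Psph) had an unadjusted p under 0.05, as had 81 of all genes (13.1%). Their median difference was 0.30, against 0.10 over all genes tested. In AD_Veh against WT_Veh, limma called 1 gene (0.162%), none of the 7, and 2 of the 7 (Mat2a and Shmt2) had an unadjusted p under 0.05, as had 57 genes in all (9.21%). Here the median of the 7 was also 0.30, against 0.04 over all genes, and 2.91% of all genes did not overlap. Ordinary regression per gene called 0 genes in both. In bulk tissue, more or fewer cells of a type and more or less RNA per cell cannot be told apart. Cell type markers moved beside these values. Aspa, an enzyme of oligodendrocytes and the only 1 of 10 listed oligodendrocyte markers measured, had a median of 9.36 (8.55 to 9.86) in ADP_Veh and 8.69 (8.15 to 10.62) in AD_Veh, against 7.93 (7.52 to 8.98) in WT_Veh. Its difference from WT_Veh in ADP_Veh was 1.20 (SE 0.45, adjusted p = 0.348). Glul, glutamine synthetase and the only 1 of 12 astrocyte markers measured, had medians of 13.88 (13.72 to 14.05) in ADP_Veh and 13.67 (13.48 to 13.92) in AD_Veh, against 13.54 (13.44 to 13.65) in WT_Veh. The 4 measured markers of 10 listed for choroid plexus were all above 0 in ADP_Veh against WT_Veh, with a median difference of 1.29, and all below 0 in AD_Veh against WT_Veh, with a median of -0.26. Their summed level had a median of 10.89 (6.96 to 12.34) in ADP_Veh and 7.47 (7.12 to 11.44) in AD_Veh, against 7.28 (6.47 to 12.76) in WT_Veh. For AD_Veh the direction thus differed between means and the summed median. Ttr, 1 of the 4, read 12.62 in WT_Veh replicate 3 and 4.95 to 7.15 in the other WT_Veh mice. The 3 measured of 12 markers of microglia and macrophages were above 0 in both comparisons, with median differences of 0.66 in ADP_Veh and 0.33 in AD_Veh. They summed to a median of 9.19 (8.01 to 10.07) in ADP_Veh and 8.43 (8.29 to 10.34) in AD_Veh, against 8.55 (8.45 to 8.91) in WT_Veh. In AD_Veh the summed median thus lay below that of WT_Veh, although the differences of means were above 0. Cd68, 1 of the 3, read 9.49 in AD_Veh replicate 5 and 6.86 to 7.89 in the other AD_Veh mice, against 7.28 to 7.94 in WT_Veh. The 3 measured of 13 neuron markers, Gad1, Nat8l and the tau gene Mapt, were also above 0 in both, with medians of 0.235 in ADP_Veh and 0.21 in AD_Veh. By group medians, Gad1 stood at 10.97 in AD_Veh (highest mouse 11.96) and 10.95 in WT_Veh. Nat8l stood at 11.34 in AD_Veh and 11.38 in WT_Veh, and Mapt at 10.38 and 9.805. Tau is also encoded by the transgene. Of the 4 measured of 10 endothelial and mural markers, 3 were above 0 in both, with medians of 0.25 in ADP_Veh and 0.37 in AD_Veh. Over all genes tested, 65.9% were above 0 in ADP_Veh and 58.2% in AD_Veh. The part of these cells in the values of the 7 genes was not tested.

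ADP_Veh was set against AD_Veh to compare transgenic mice with and without the heterozygous Polb allele on vehicle. These groups also differed in sex, with 1 female of 4 mice in ADP_Veh and 3 of 5 in AD_Veh. Shmt1 was higher by 0.53 (SE 0.33), Psph by 0.19 (SE 0.12) and Psat1 by 0.14 (SE 0.20), while Shmt2 was lower by 0.31 (difference -0.31, SE 0.14, unadjusted p = 0.0413 in limma). The Psat1 difference was 0.40 without AD_Veh replicate 5 and 0.043 without AD_Veh replicate 1. Limma adjusted p-values of the 7 genes ran from 0.961 to 0.997. All ranges overlapped, where 1.45% of all genes did not overlap, and limma called 0% of genes. The single one of the 7 with an unadjusted p under 0.05 was Shmt2, against 26 of 619 genes. All 4 choroid plexus markers were above 0 here, with a median of 1.78, as were 64.9% of all genes tested, with a median of 0.051. The part of these markers in the values of the 7 genes was not tested.

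**Figure D2:**
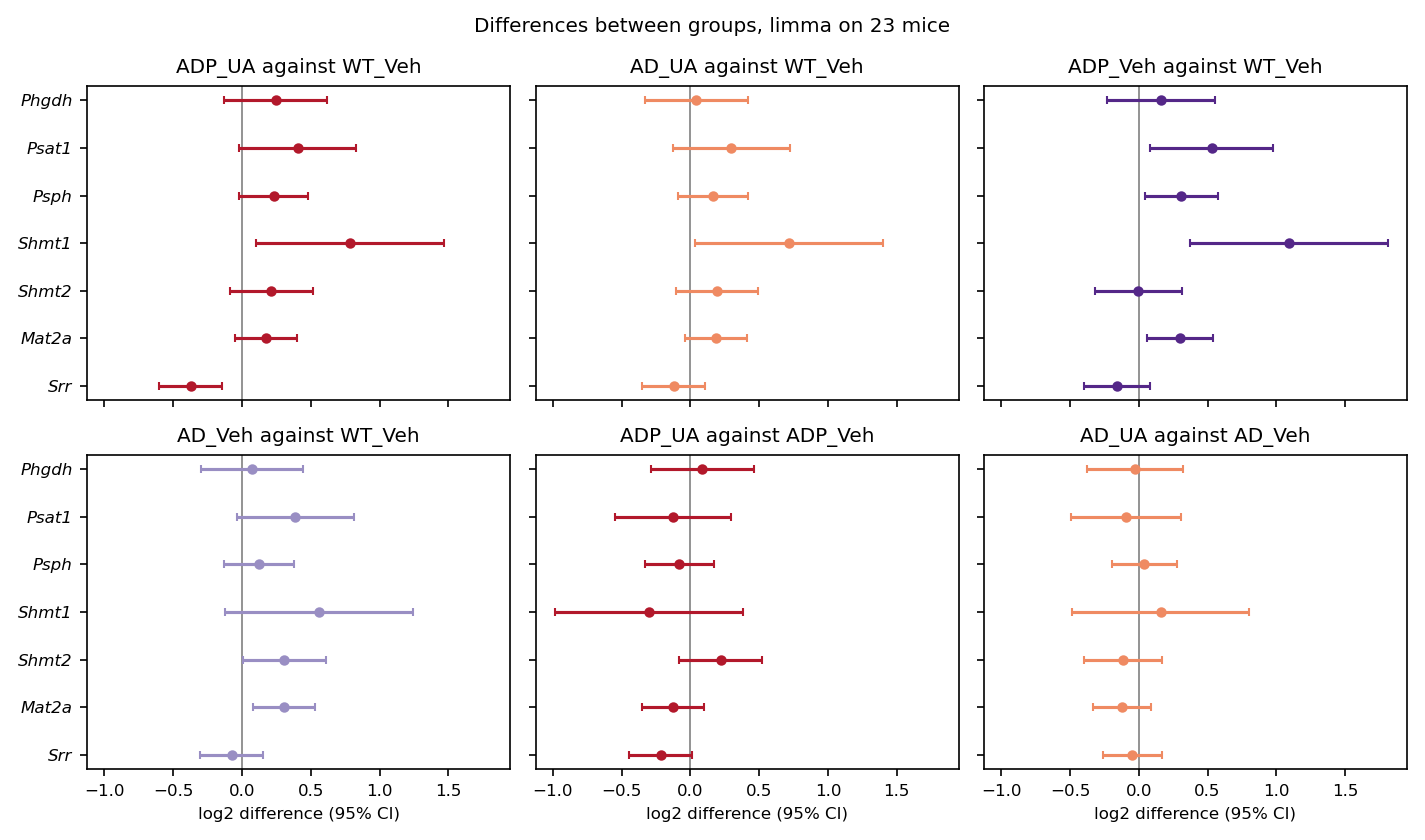
Log2 differences of the 7 genes in 6 comparisons, each point an estimate from limma on 23 mice and each bar its 95% confidence interval. Shmt1 has the widest intervals, and Srr is the gene below 0 in all 4 comparisons with WT_Veh, most in ADP_UA at -0.37.

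Urolithin A against vehicle was compared within each genotype. In AD mice the 7 differences ran from -0.12 (Mat2a, SE 0.10) to 0.16 (Shmt1, SE 0.31), and adjusted p-values in limma from 0.932 to 0.988. Phgdh differed by -0.03 (95% interval -0.38 to 0.32), Psat1 by -0.09 (-0.49 to 0.31), Psph by 0.04 (-0.20 to 0.28), Shmt2 by -0.11 (-0.40 to 0.17) and Srr by -0.05 (-0.26 to 0.17). In ADP mice they ran from -0.30 (Shmt1, SE 0.33) to 0.22 (Shmt2, SE 0.14), and adjusted p-values from 0.732 to 0.918. Phgdh differed by 0.09 (95% interval -0.29 to 0.46), Psat1 by -0.13 (-0.55 to 0.30), Psph by -0.08 (-0.33 to 0.17) and Mat2a by -0.13 (-0.35 to 0.10). Srr was lower in ADP_UA than in ADP_Veh by 0.21 on the log2 scale (difference -0.21, 95% interval -0.44 to 0.01). None of the 7 had an unadjusted p under 0.05 in either genotype, against 21 genes in AD and 40 in ADP mice, and limma called 0% in both. All ranges of the 7 overlapped, where 0% of genes in AD and 1.29% in ADP mice did not. The difference between the 2 treatment effects, tested as an interaction, was 0.33 for Shmt2 (SE 0.20) and -0.17 for Srr (SE 0.15), with adjusted p = 0.990 for all 7 genes and 0% of genes called. Without ADP_UA replicate 4 the interaction of Srr was -0.087. Shmt2 was thus 0.22 higher in ADP_UA than in ADP_Veh and 0.11 lower in AD_UA than in AD_Veh (difference -0.11), a contrast that the interaction did not resolve.

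Both treated groups were also set against WT_Veh. ADP_UA mice had the lowest Srr, which differed from WT_Veh by -0.37 (SE 0.11, 95% interval -0.60 to -0.14), 0.773-fold, with a limma adjusted p of 0.157 and rank 10 of 619 by p. All 5 ADP_UA mice lay below the WT_Veh mean, but replicate 2, at 10.26, was above 2 WT_Veh mice. Without that replicate the difference was -0.46 (adjusted p = 0.0291), and without the low-count replicates 3 and 5 it was -0.30 (adjusted p = 0.643). Array weights gave -0.33 (adjusted p = 0.00867), in a setting that called 182 genes. Against AD_UA, Srr in ADP_UA differed by -0.25 (SE 0.10, adjusted p = 0.507), and it was the only one of the 7 with an unadjusted p under 0.05 there, as were 52 genes in all. Shmt1 was higher in ADP_UA than in WT_Veh by 0.79 (SE 0.33, adjusted p = 0.206), and by 0.40 without WT_Veh replicate 4. Psat1 was higher by 0.40 (SE 0.20), Phgdh by 0.25 (SE 0.18), Psph by 0.23 (SE 0.12), Shmt2 by 0.21 (SE 0.14) and Mat2a by 0.17 (SE 0.11), with adjusted p-values from 0.239 to 0.400. The Shmt2 value was 0.094 without WT_Veh replicate 4. In AD_UA against WT_Veh, Shmt1 was higher by 0.72 (SE 0.33, adjusted p = 0.528), by 0.33 without WT_Veh replicate 4, and the others ran from -0.12 (Srr) to 0.30 (Psat1). Limma called 0% of genes in these 3 comparisons. Unadjusted p-values under 0.05 were found for 2 of the 7 in ADP_UA against WT_Veh (136 of 619 genes) and 1 of the 7 in AD_UA against WT_Veh (57 genes). None of the 7 separated, where 5.65% of genes did so in ADP_UA against WT_Veh, 3.72% in AD_UA against WT_Veh and 1.29% in ADP_UA against AD_UA. Over all genes the median difference from WT_Veh was 0.11 in ADP_UA and 0.12 in AD_UA, and centring each mouse on its median moved it by -0.12 in both. Transcripts of choroid plexus varied widely between the same mice, with a summed level of 4 markers of 10 listed at a median of 12.44 (7.48 to 13.69) in ADP_UA and 11.53 (7.02 to 13.21) in AD_UA, against 7.28 (6.47 to 12.76) in WT_Veh. Their part in the Srr value was not tested, nor was that of depth beyond the values given.

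Sex was compared in a model that also held the 5 group means. Female minus male differences of the 7 genes ran from -0.11 (Phgdh) to 0.03 (Srr), with limma adjusted p-values from 0.796 to 0.992. The Phgdh difference was 0.00643 without AD_Veh replicate 5. Phgdh averaged 8.51 ± 0.19 in 11 females and 8.60 ± 0.33 in 12 males, and Srr 10.13 ± 0.20 in females and 10.11 ± 0.21 in males (SD). Limma called 0% of genes, and 48 had an unadjusted p under 0.05, none of the 7 among them.

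Among mice of the same group the 7 genes varied to different degrees. The SD within groups was 0.50 for Shmt1, 0.32 for Psat1, 0.28 for Phgdh, 0.20 for Shmt2, 0.18 for Psph, 0.17 for Srr and 0.17 for Mat2a. Shmt1 varied more than 77.4% of all genes tested and Mat2a more than 30.7%. To see which of them moved together, each value was taken as the deviation from the mean of its group, over 23 mice and 21 pairs of genes. Phgdh and Psat1, consecutive enzymes, had Pearson r = 0.88 (permutation p = 1e-05, the smallest that 100000 resamples give, adjusted p = 0.00021) and Spearman rho = 0.79 (permutation p = 4e-05, adjusted p = 0.00084). The correlation was 0.80 without the 2 mice farthest from the median of Phgdh, of which AD_Veh replicate 5 was 1, and 0.71 without AD_Veh replicate 5 alone. These omissions differ in kind, here and in the pairs below. The first kept the group means of all 23 mice, and the second took the means anew without that mouse. With means kept, the other AD_Veh mice shared an offset below 0 in both genes, so the 2 values cannot be set against each other. Psat1 and Mat2a had r = 0.75 (permutation p = 0.00018, adjusted p = 0.00189) and rho = 0.62 (permutation p = 0.00235, adjusted p = 0.0247), with r = 0.45 without the 2 farthest mice and 0.42 without AD_Veh replicate 5 alone. Phgdh and Mat2a had r = 0.66 (permutation p = 0.00162, adjusted p = 0.0113) but rho = 0.51 (permutation p = 0.0147, adjusted p = 0.0772). Their r was 0.41 without the 2 farthest mice and 0.27 without AD_Veh replicate 5, so the size of this r depended on that mouse. Psph, the third enzyme, was less tightly tied, with r = 0.51 to Phgdh (adjusted p = 0.0605) and r = 0.48 to Psat1 (adjusted p = 0.0785) in the permutation test. Shmt1 and Shmt2, which catalyse 1 reaction in 2 compartments, had r = 0.05 and rho = -0.20 (adjusted p = 0.884 and 0.574, permutation). Srr correlated negatively with Psat1 (r = -0.37, adjusted p = 0.263) and Phgdh (r = -0.30, adjusted p = 0.323), without passing the permutation test on the values as deposited. All genes of a mouse share 1 scaling, which by itself moves them together. After centring each mouse on its median, r for Phgdh and Psat1 was 0.83, for Psat1 and Mat2a 0.55, for Psat1 and Psph 0.21 and for Psat1 and Srr -0.57. After quantile normalization r for Psat1 and Srr was -0.65. The pairs past the adjusted threshold numbered 3 as deposited, 4 after median centring and 5 after quantile normalization. After median centring, only Phgdh with Psat1 had a larger absolute r than Psat1 with Srr. After quantile normalization, only Phgdh with Psat1 (0.75) and Psat1 with Mat2a (0.73) did.

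**Figure D3:**
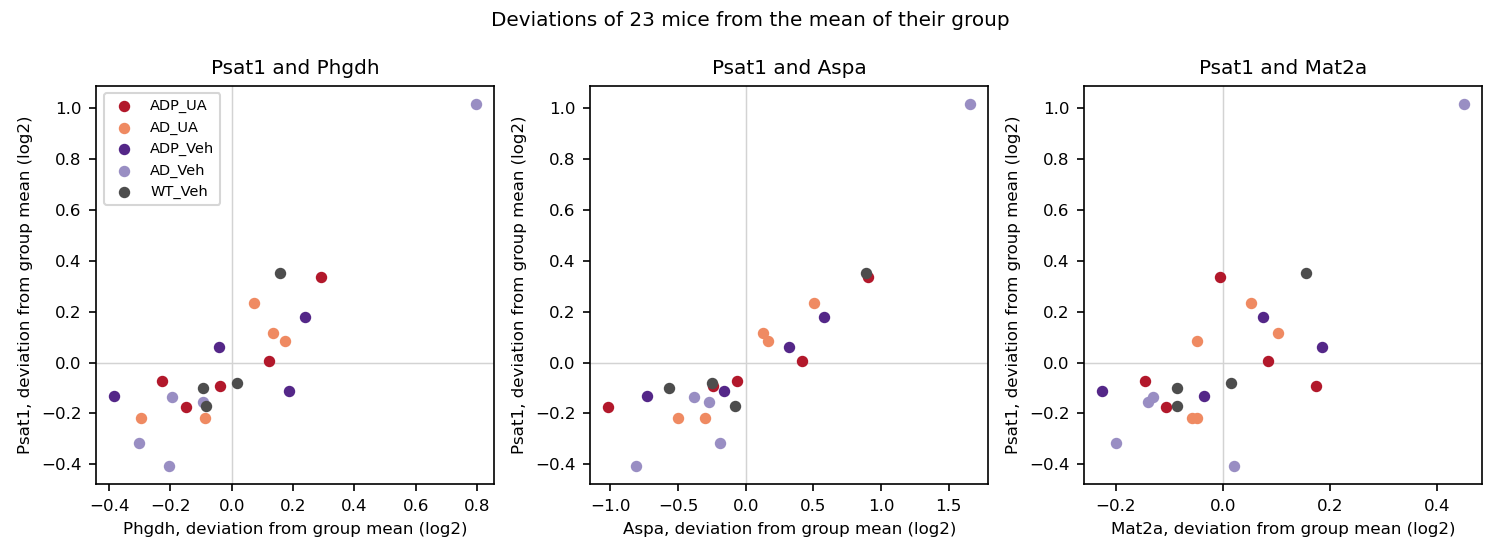
Deviations of 23 mice from the mean of their group, in log2, for Psat1 against Phgdh, Psat1 against Aspa and Psat1 against Mat2a. Each point is 1 mouse, coloured by group. Points rise together in all 3 panels (r = 0.88, 0.90 and 0.75), and 1 AD_Veh mouse lies at the far upper right of each.

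For each of the 7 genes, the 3 genes most like it in these deviations were listed, out of 618 others, with r as a description. Psat1 was most like Itch (r = 0.93), a ubiquitin ligase, Aspa (0.90) and Fah (0.89), the last enzyme of tyrosine breakdown, and Phgdh held position 4. Phgdh was most like Psat1 (0.88), Gatm (0.85), the first enzyme of creatine synthesis, and Taldo1 (0.84), transaldolase of the pentose phosphate pathway. When AD_Veh replicate 5 was left out, Phgdh had r = 0.71 with Psat1, 0.76 with Gatm and 0.72 with Taldo1, so Psat1 was no longer the closest. Without AD_Veh replicate 5, Psat1 had r = 0.86 with Itch, 0.75 with Fah and 0.87 with Aspa, which stood at 10.62 in that mouse. Mat2a was most like Odc1 (0.83), the first enzyme of polyamine synthesis, Rps6ka1 (0.81) and Lamc1 (0.80). Leaving out AD_Veh replicate 5 gave 0.76 for Odc1, 0.63 for Rps6ka1 and 0.60 for Lamc1. Among the genes most like Srr were Ywhaz (0.80), a 14-3-3 protein, and Map2k1 (0.78), a protein kinase. The nearest genes of the low-count members were less close, at 0.62 for Shmt1 (D2hgdh) and 0.68 for Shmt2 (Stam2), and Psph reached 0.72 with Nadk2. With markers, Srr had r = -0.51 with Aspa, -0.55 with Ttr of choroid plexus and 0.47 with Mapt of neurons. Mapt is the tau gene, and whether its probe also counts the tau transgene was not tested. It ran from 9.74 to 9.85 in WT_Veh, 10.16 to 10.74 in AD_Veh and 9.59 to 10.58 in ADP_Veh. In the treated groups it ran from 10.09 to 10.60 in AD_UA and 10.08 to 10.49 in ADP_UA. Psat1 had r = 0.55 with Glul and 0.35 with Ttr. Without AD_Veh replicate 5, Psat1 had r = 0.38 with Glul and 0.77 with Ttr.

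Within-mouse differences between paired enzymes carry no scaling of the mouse. Shmt1 minus Shmt2 averaged -1.68 ± 0.61 in ADP_UA, -1.73 ± 0.33 in AD_UA, -1.16 ± 0.58 in ADP_Veh, -2.002 ± 0.41 in AD_Veh and -2.25 ± 0.68 in WT_Veh (SD, n = 4 or 5). ADP_Veh had the highest mean, and its mice ran from -1.81 to -0.61 against -3.05 to -1.62 in WT_Veh, so the ranges met. Srr minus Phgdh averaged 1.20 ± 0.48 in ADP_UA, 1.65 ± 0.29 in AD_UA, 1.5 ± 0.13 in ADP_Veh, 1.67 ± 0.50 in AD_Veh and 1.82 ± 0.21 in WT_Veh. It was lowest in ADP_UA replicates 4 and 5 (0.75 and 0.64) and in AD_Veh replicate 5 (0.79). Psat1 minus Psph averaged 2.07 ± 0.29 in ADP_UA, 2.03 ± 0.20 in AD_UA, 2.12 ± 0.20 in ADP_Veh, 2.16 ± 0.45 in AD_Veh and 1.90 ± 0.12 in WT_Veh. All pairs of groups overlapped in the 3 differences.

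**Figure D4:**
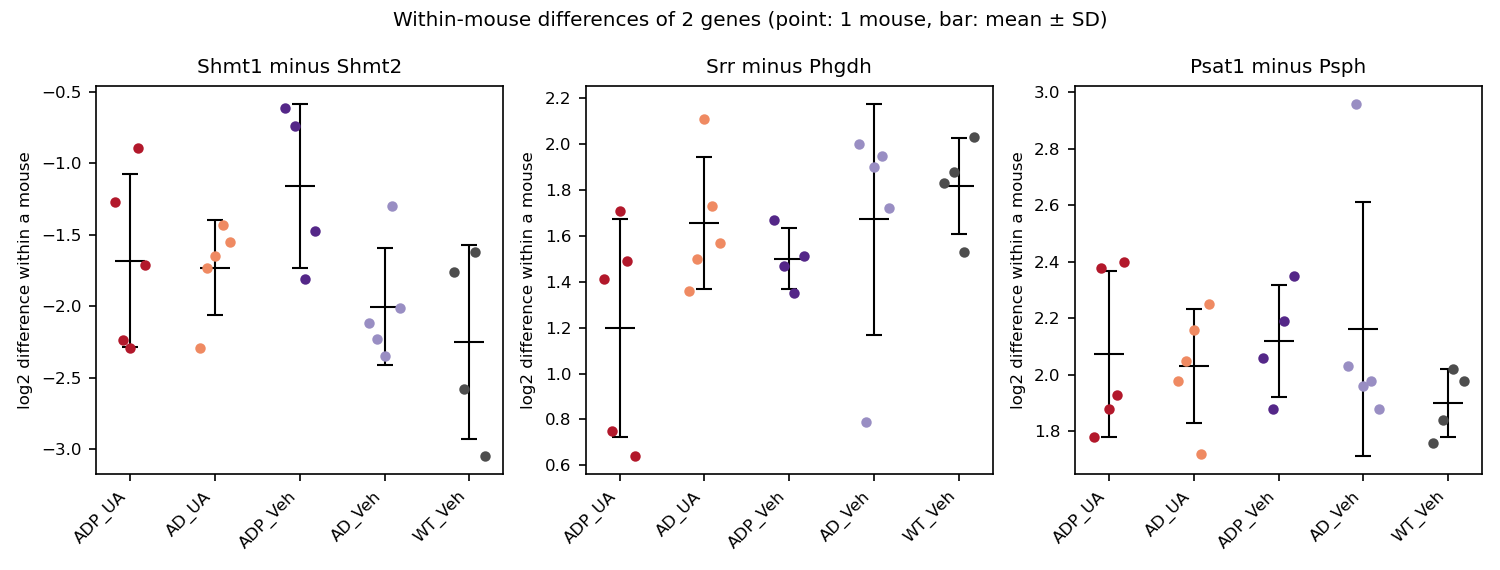
Differences between 2 genes within a mouse, in log2, for Shmt1 minus Shmt2, Srr minus Phgdh and Psat1 minus Psph. Points are mice by group, and bars are means ± SD (n = 4 or 5). The group ranges overlap in every panel, and 2 ADP_UA mice and 1 AD_Veh mouse lie below the rest in Srr minus Phgdh.

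Other genes of these pathways came from 6 lists, of whose 88 genes 26 were measured and 22 tested. None of them passed the adjusted threshold in ADP_UA against WT_Veh, in ADP_Veh against WT_Veh or in AD_Veh against WT_Veh. Over all genes tested, 66.4% were above 0 in ADP_UA against WT_Veh, with a median of 0.11. In ADP_UA against WT_Veh the 3 tested folate genes were above 0, with a median of 0.77, and the smallest p among them belonged to Tyms, thymidylate synthase (0.77, SE 0.36, limma adjusted p = 0.226), and Folr1, a folate receptor abundant in choroid plexus (2.77, SE 1.30, adjusted p = 0.226). Of the 4 glycine, methionine and transsulfuration genes 2 were above 0, and Bhmt, which remethylates homocysteine, differed by 1.10 (SE 0.59, adjusted p = 0.257) and Dmgdh, which oxidises dimethylglycine, by 0.61 (SE 0.47, adjusted p = 0.423). Leaving out 1 mouse gave 0.38 (ADP_UA replicate 5) to 1.02 (ADP_UA replicate 2) for Dmgdh. Without both low-count ADP_UA mice the differences were 0.10 for Dmgdh, 0.56 for Bhmt, 0.44 for Tyms and 1.96 for Folr1. The 5 transport genes were all above 0, with a median of 0.25, led by the mitochondrial citrate carrier Slc25a1 (0.38, SE 0.15, adjusted p = 0.196) and the neutral amino acid transporter Slc1a5 (0.89, SE 0.44, adjusted p = 0.228). For D-serine, Grin1 differed by -0.19 (SE 0.11, adjusted p = 0.300) and Sdsl, a serine dehydratase-like enzyme, by 0.32 (SE 0.20, adjusted p = 0.325). Without both low-count ADP_UA mice these were -0.064 for Grin1 and 0.20 for Sdsl, and 0.595 for Slc1a5. The 5 glycolytic genes around 3-phosphoglycerate were all below 0, with a median of -0.08, and included Gapdh (-0.08, SE 0.07, adjusted p = 0.440) and Eno1, enolase (-0.09, SE 0.08, adjusted p = 0.470). In ADP_Veh against WT_Veh, Eno1 differed by -0.24 (SE 0.08, adjusted p = 0.258) and Pgk1, phosphoglycerate kinase, by -0.16 (SE 0.09, adjusted p = 0.451).

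Atf4, the transcription factor known to raise serine synthesis genes when amino acids are short, and its target Asns, asparagine synthetase, lay in the opposite direction to Psat1. Atf4 had a range of 9.82 to 10.39 in ADP_UA, 9.94 to 10.25 in AD_UA, 9.69 to 10.02 in ADP_Veh and 9.84 to 10.09 in AD_Veh, against 10.17 to 10.37 in WT_Veh. Both vehicle transgenic groups lay wholly below WT_Veh. Asns had 9.09 to 9.5 in ADP_UA, 9.24 to 9.41 in AD_UA, 9.12 to 9.45 in ADP_Veh and 8.90 to 9.5 in AD_Veh, against 9.56 to 9.82 in WT_Veh, so every transgenic mouse was below every wild-type mouse. In ADP_Veh against WT_Veh the differences were -0.36 for Atf4 (SE 0.10, limma adjusted p = 0.198) and -0.38 for Asns (SE 0.12, adjusted p = 0.228). In AD_Veh against WT_Veh they were -0.31 for Atf4 (SE 0.10, adjusted p = 0.362) and -0.44 for Asns (SE 0.11, adjusted p = 0.159), and in ADP_UA against WT_Veh -0.21 for Atf4 (adjusted p = 0.221) and -0.38 for Asns (adjusted p = 0.157). Neither passed the threshold in these comparisons. The share of all genes tested that did not overlap with WT_Veh was 7.59% in ADP_Veh, 2.91% in AD_Veh, 5.65% in ADP_UA and 3.72% in AD_UA. Over the deviations of 23 mice, Psat1 had r = -0.76 with Asns (-0.61 without AD_Veh replicate 5) and r = -0.07 with Atf4.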

How the data were processed

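Hippocampal RNA of 23 mice in 5 groups was measured on an nCounter metabolic panel, 1 sample per mouse. The deposited table holds log2 normalized counts that the authors made with nCounter Advanced Analysis, per the series' design text. Its background correction, normalization genes and software version are not given in the sources used here. Of 768 rows, 20 had no values, and 748 genes had values from -0.57 to 15.23. At least 99.21% of low values (72 to 186 per mouse, counts up to 12) fell, within 0.0125, on the log2 of a whole count shifted by a fixed amount in each mouse, which gave the inferred counts. Intervals from counts cover counting error only.

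Group means were estimated with limma 3.58.1 in R 4.3.3 (trend moderation), in 1 model of all 23 mice, for 619 genes with a normalized value of at least 20 in at least 4 samples, which left out 129. Tests were two-sided, adjusted by Benjamini-Hochberg over the 619 genes, with a threshold of 0.05, in 10 comparisons. Correlations used deviations from group means and two-sided permutation tests with 100000 resamples, adjusted over 21 pairs. The limma fit alone was tested on simulated data, with values drawn independently for each gene and known changes in AD_Veh. The correlations, inferred counts and outlier checks were not simulated. RefSeq matched 747 of 748 symbols, all 7 genes here among them. Tables and figures were made in Python 3.11.15 (matplotlib 3.10.9, SciPy 1.17.1, pandas 2.3.3, NumPy 2.4.6).

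The 7 genes and the gene lists were chosen with earlier results of these data known. Named genes were the 7, for each the 3 genes most like it, the 2 genes of each pathway list with the smallest p in ADP_UA against WT_Veh, Atf4, Asns, and the markers Glul, Mapt and Ttr. A gene that this rule names is not reported here. Aspa, Pgk1 and Eno1 in ADP_Veh, and Grin1 as a tissue check, were added after their values were seen. Alternatives were other scalings, filters, covariates, moderation, array weights, a replicate block, ordinary regression and leaving out each mouse. Chosen once the values had been seen were the omission of both ADP_UA mice of low counts and, for correlations, of AD_Veh replicate 5.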

Additional observations from a re-analysis of the deposited data

Results flagged for a closer look

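In each gene and group, the highest and the lowest mouse were compared with the rest of the group by the size of their gap against the whole range (Dixon's 95% value, 0.71 for 5 mice). Of 35 combinations 3 stood out, where chance gives about 1 in 20. AD_Veh replicate 5 read 9.32 in Phgdh, while the other 4 mice of its group ran from 8.22 to 8.43. It read 11.49 in Psat1, with the others from 10.07 to 10.34. AD_UA replicate 4 read 8.01 in Psph, below the other 4 mice at 8.37 to 8.49. In AD_Veh replicate 5, Mat2a (11.55), Aspa (10.62) and the macrophage marker Cd68 (9.49) were also the highest of all 23 mice, and Asns (8.90) the lowest. No cause of these values was tested.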

How the results depend on the processing

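Over 71 single-gene differences and 2399 alternative values, 2367 kept their sign, 32 turned (14 of them on leaving out 1 mouse), and 58 differences never turned. The threshold was passed by 26, and by none of the 7 enzymes as deposited. Array weights, which give deviant mice less weight, called the most genes. They called 10 in AD_Veh against WT_Veh (1 as deposited), 132 in ADP_Veh against WT_Veh, 2 in ADP_Veh against AD_Veh, 1 in AD_UA against AD_Veh, 92 in AD_UA against WT_Veh, 182 in ADP_UA against WT_Veh and 32 in female against male (0 as deposited in each). With them Psat1 passed in ADP_Veh against WT_Veh (0.68, limma adjusted p = 0.00306), as did Psph (0.36, adjusted p = 0.0166) and Mat2a (0.36, adjusted p = 0.00458), and Srr passed in ADP_UA against WT_Veh (-0.33, adjusted p = 0.00867). Psat1, Psph, Shmt1 and Mat2a in ADP_UA and Psat1 and Mat2a in AD_UA, each against WT_Veh, passed only with these weights. Without these weights, Psat1 passed in ADP_Veh against WT_Veh on leaving out AD_Veh replicate 5 (limma adjusted p = 0.0480). Srr did so in ADP_UA against WT_Veh on leaving out ADP_UA replicate 2 (limma adjusted p = 0.0291). The remaining calls were of pathway and marker genes such as Asns, all with array weights. In AD_Veh against WT_Veh, 0 genes were called after median centring, quantile normalization, only the groups compared, or ordinary regression. Leaving out 1 mouse gave 0 to 2 calls in AD_Veh against WT_Veh, 0 to 6 in ADP_Veh against WT_Veh (6 without AD_Veh replicate 5), 0 to 13 in ADP_UA against WT_Veh (13 without WT_Veh replicate 3, 10 without ADP_UA replicate 2), 0 to 1 in ADP_UA against AD_UA and 0 to 28 in female against male. Pairs of enzymes called numbered 3 as deposited, 4 after median centring and 5 after quantile normalization. The cause of these changes was not tested.

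For Phgdh, AD_Veh against WT_Veh gave -0.0179 after quantile normalization, -0.0253 with the replicate block, -0.0792 with array weights and -0.13 to 0.15 on leaving out 1 mouse. Phgdh in AD_UA against AD_Veh gave 0.20 with array weights and -0.10 to 0.17 on leaving out 1 mouse. In ADP_UA against ADP_Veh it gave -0.0113 with the replicate block, -0.0504 with array weights and -0.042 to 0.16 on leaving out 1 mouse. In AD_UA against WT_Veh it gave -0.077 after median centring, -0.0782 after quantile normalization and -0.0533 with the replicate block. Psat1 in AD_UA against AD_Veh gave 0.14 with array weights and -0.19 to 0.16 on leaving out 1 mouse. Psph there gave -0.054 after median centring, -0.0182 after quantile normalization and -0.011 to 0.13 on leaving out 1 mouse, and Shmt1 gave -0.0474 after quantile normalization and -0.0544 with array weights. Shmt2 in ADP_Veh against WT_Veh gave 0.0232 with array weights and -0.13 to 0.06 on leaving out 1 mouse. After quantile normalization Shmt2 gave -0.0364 in AD_UA and -0.16 in ADP_UA against WT_Veh, and Sdsl -0.26 in ADP_UA against WT_Veh. Between females and males, leaving out 1 mouse gave -0.16 to 0.00643 for Phgdh and -0.0185 to 0.0581 for Srr.

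Same-numbered mice of different groups correlated above 0.1 in 27 of 43 pairs (median 0.17), against 56 of 168 pairs of mice with different numbers (median -0.076), which is a hint from the data. Not every same-numbered pair exceeded 0.1 and the labels name no shared litter, batch or day, so the numbers were not used as pairs. With the replicate block ADP_Veh against WT_Veh had 1 call, and the other counts of calls did not change. Centring on reference genes was not run, since the rows named so hold no values. Inferred counts per mouse were 7 to 54 for Shmt1 and 36 to 142 for Shmt2, and groups held 4 or 5 mice.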
